A study of Mus musculus with 2 samples.

Results

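The genes described here are 9 members of the Ly6 and Lynx family of small surface proteins, Ly6a, Ly6c1, Ly6e, Ly6h, Lynx1, Lypd1, Lypd6, Lypd6b and Cd59a. They were chosen by name from the 30223 genes of a single-cell table of mouse hippocampus, and all 9 were present in it. Cells came from 2 libraries, each 1 pool of 8 hippocampi from 4 mice on the C57Bl.6/J strain. One pool was of wild-type mice. The other was of mice homozygous for the knock-in allele Pigv341E, and no other allele or treatment is given for either. Ages and sexes are not given in the sources used here. Every mouse of a genotype went into the same library, so genotype and library cannot be told apart, no test between genotypes was possible, and every difference below is a difference between 2 libraries.

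Proteins of this family share a compact fold, the three-finger or LU domain, which snake venom toxins also have. A glycosylphosphatidylinositol (GPI) anchor holds most of them on the outer face of the cell membrane, and Pigv encodes a mannosyltransferase that adds a mannose to the growing anchor in the endoplasmic reticulum. In brain, Lynx1, Ly6h, Lypd1 (also called Lynx2), Lypd6 and Lypd6b are known as modulators of nicotinic acetylcholine receptors. Lypd6 is also known to act on the Wnt co-receptor Lrp6. Cd59a blocks the last step of the complement attack complex, Ly6a (Sca-1) marks blood stem cells and brain vessels, Ly6c1 marks vessels and some leukocytes, and Ly6e is induced by interferon. The study's design asks what the Pigv allele does in the hippocampus. Transcripts were measured here, not the anchoring of the proteins.

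There were 7094 wild-type and 8836 knock-in cells, and 28 cell barcodes occurred in both. The deposited values are depth-corrected whole numbers, with totals per cell between 4846 and 14501, so the sequencing depth of a cell is unknown. Wild-type cells had a median of 3122 detected genes and knock-in cells of 3736. Clusters matched hippocampal neurons, glia, vessel cells, fibroblasts and choroid plexus by markers, and such classes are called "-like" below. Clusters without a name held 13.9% of wild-type and 19.0% of knock-in cells. The level of Pigv over all cells was 0.0886 per 10000 (wild-type) and 0.1004 (knock-in), a value that does not check the knock-in, which changes the gene's sequence.

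Of the 9 genes, 5 (Lynx1, Ly6e, Ly6a, Ly6c1 and Ly6h) lie on chromosome 15 between 74747852 and 75567255 (GRCm38, GENCODE M21), within a cluster of 19 genes of the family list. Lypd6b and Lypd6 lie on the same strand of chromosome 2, at 49787688 to 49948849 and 50066429 to 50193569, Cd59a at 104095801 to 104115354 of chromosome 2, and Lypd1 at 125867622 to 125913101 of chromosome 1. RefSeq promoter windows (GRCm38.p6, 250 bases before to 50 after the start) were matched for 4 of the 9 genes, Ly6c1, Lypd1, Lypd6 and Cd59a; Ly6a, Ly6e, Ly6h, Lynx1 and Lypd6b had no entry. They are shown because the 4 genes differ in where their level over both libraries together was highest: Ly6c1 in endothelial-like, Cd59a in choroid plexus-like, Lypd1 in dentate granule-like and Lypd6 in astrocyte-like cells. Capitals mark each CG dinucleotide, read 5′ to 3′ on the gene's strand.
Ly6c1, chr15:75048788-75049087, minus strand: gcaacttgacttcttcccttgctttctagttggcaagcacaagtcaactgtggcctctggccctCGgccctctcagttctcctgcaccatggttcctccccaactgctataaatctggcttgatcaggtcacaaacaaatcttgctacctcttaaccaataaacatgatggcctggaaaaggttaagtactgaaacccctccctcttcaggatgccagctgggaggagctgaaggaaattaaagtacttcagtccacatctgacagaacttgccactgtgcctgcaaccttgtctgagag
Cd59a, chr2:104095551-104095850, plus strand: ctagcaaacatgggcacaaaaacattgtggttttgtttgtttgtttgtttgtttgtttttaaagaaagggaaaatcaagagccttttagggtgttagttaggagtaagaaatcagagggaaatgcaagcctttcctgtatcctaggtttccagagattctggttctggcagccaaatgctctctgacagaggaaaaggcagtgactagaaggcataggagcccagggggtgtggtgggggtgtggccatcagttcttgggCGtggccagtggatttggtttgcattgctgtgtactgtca
Lypd1, chr1:125912879-125913178, minus strand: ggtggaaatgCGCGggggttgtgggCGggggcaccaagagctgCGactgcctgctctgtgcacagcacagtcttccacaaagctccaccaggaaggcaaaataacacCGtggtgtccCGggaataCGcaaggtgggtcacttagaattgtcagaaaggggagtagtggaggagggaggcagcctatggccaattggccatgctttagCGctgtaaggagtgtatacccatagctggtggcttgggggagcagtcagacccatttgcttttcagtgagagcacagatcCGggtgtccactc
Lypd6, chr2:50066179-50066478, plus strand: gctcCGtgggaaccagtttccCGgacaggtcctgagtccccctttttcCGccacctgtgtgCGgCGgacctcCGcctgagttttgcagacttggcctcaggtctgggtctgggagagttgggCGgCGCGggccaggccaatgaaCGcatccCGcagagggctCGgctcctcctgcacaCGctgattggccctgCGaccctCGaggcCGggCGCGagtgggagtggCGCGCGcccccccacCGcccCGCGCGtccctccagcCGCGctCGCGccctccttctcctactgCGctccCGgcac
The windows of Ly6c1 and Cd59a held 1 CG each, that of Lypd1 held 9 and that of Lypd6 held 31. The median over 32851 promoter windows was 7, and 10.6% of them held 31 or more. The letters TATAAA, searched on both strands, occurred in the window of Ly6c1 alone of the 4, and in 13.6% of all windows. This is a match of letters and not a site.

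A level is what a gene contributes to the summed deposited values of a class in 1 library, per 10000. Ratios are given as log2 of the knock-in level over the wild-type level, with 0.1 added to each. A gene was called past the size rule when this ratio was at least 1 in either direction (2-fold), with a level of at least 1 per 10000 and at least 10% of cells above 0 in 1 of the libraries. In the 12 classes for which both libraries held 50 cells or more, none of the 108 gene-by-class pairs of the family was past the rule, and 14 pairs met its limits on level and detection. Among all 25186 gene-by-class pairs that met these limits, 0.989% were past the rule. Over all cells together only 1 of the 9 genes, Ly6h, met the limits, and it was not past the rule. Of the 2075 genes that met them, 0.289% were past it. At 1.5-fold, 2 of the 14 pairs were past, both Ly6h and both higher in the knock-in library, against 5.48% of all pairs in either direction (2.40% higher and 3.08% lower). Over all cells Ly6h, the only member that met the limits there, was not past 1.5-fold, against 1.11% of the genes that met them. Of the 14 pairs, 12 were higher in knock-in cells, and the median of their log2 ratios was 0.29, beside -0.06 over all pairs that met the limits; 10 of the 14 belonged to Ly6h.

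**Figure D1:**
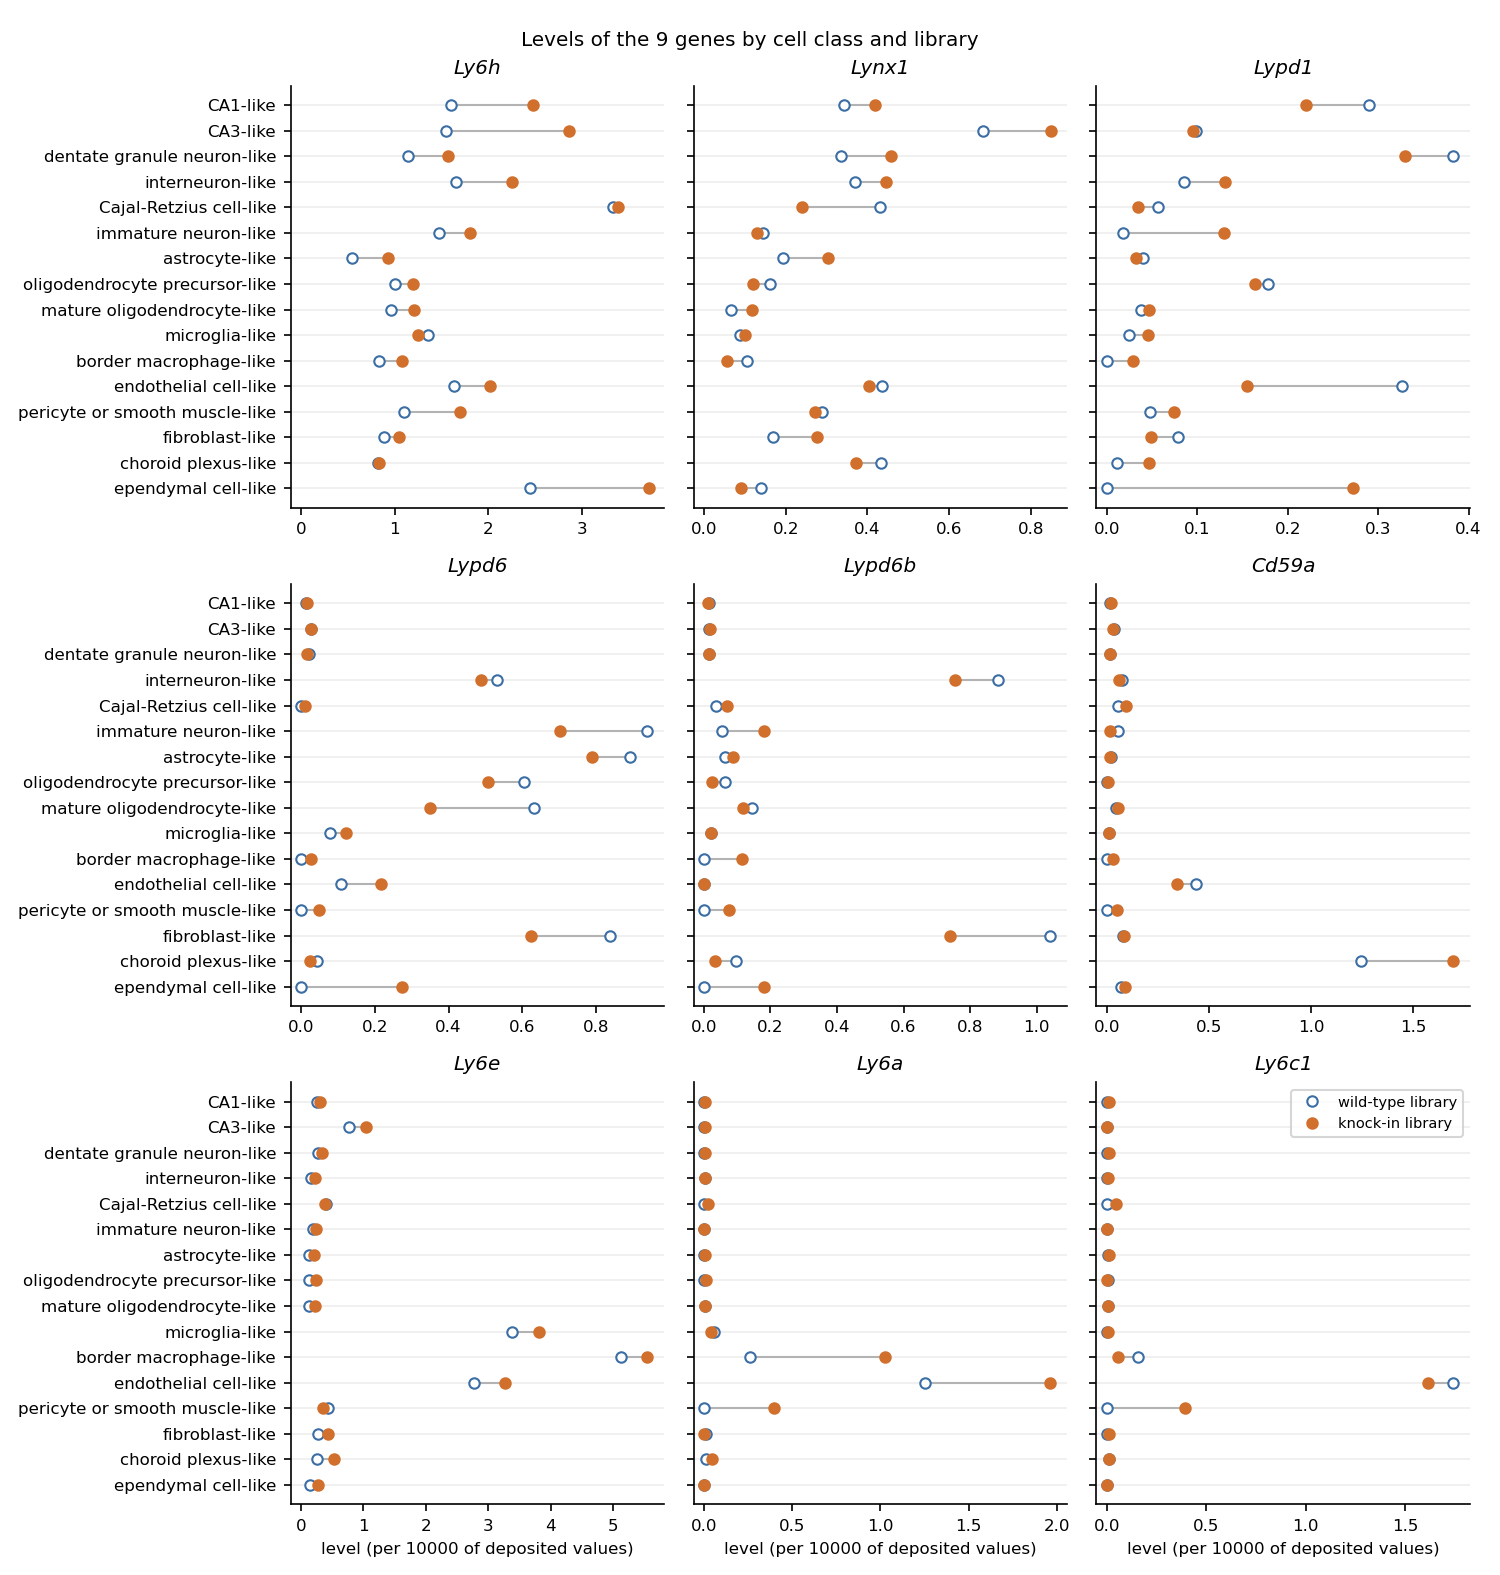
Level of each gene (x axis, per 10000 of deposited values; each panel has its own scale) in the 16 named classes (y axis) in the wild-type library (open points) and the knock-in library (filled points). Ly6a, Ly6c1 and Cd59a stood near 0 in all but a few classes, Ly6e was high in microglia-like, border macrophage-like and endothelial-like cells, and Ly6h was above 0.5 in every class.

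Ly6h, a neuronal member known to restrain the trafficking of alpha7 nicotinic receptors to the cell surface, had the higher level in the knock-in library in 11 of the 12 classes. In CA3-like pyramidal neurons its level was 1.55 in wild-type and 2.87 in knock-in cells, which is a log2 ratio of 0.84. In CA1-like neurons the levels were 1.60 and 2.48, a log2 ratio of 0.60. Among the Ly6h pairs that met the limits, these were the ones past 1.5-fold. In the same direction, 1.71% of 1991 genes were past it in CA3-like and 1.49% of 1874 genes in CA1-like cells. Astrocyte-like cells had a log2 ratio of 0.67, with Ly6h levels of 0.546 and 0.925, which did not meet the limit on level. The shares of cells with a value of 2 or more were 39.8% and 68.1% of CA3-like and 46.1% and 64.7% of CA1-like cells. After each cell's values were drawn down to a total of 1000, 14.6% (exact Clopper-Pearson 95% interval 10.8 to 19.0, counting error only, as for all intervals below) and 25.8% (21.4 to 30.7) of CA3-like cells were above 0.

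In the other neurons the difference in Ly6h was smaller. Dentate granule neuron-like cells, the principal cells that relay cortical input to CA3, had levels of 1.15 and 1.57 (log2 ratio 0.43), and interneuron-like cells had 1.66 and 2.25 (0.42). Cajal-Retzius-like cells, early-born Reln-producing neurons of the marginal layer, had nearly the same level in both libraries, 3.34 and 3.39. Of the 32 clusters for which both libraries held 50 cells or more, 31 had the higher Ly6h level in knock-in cells, and the exception was the choroid plexus-like cluster led by Ttr, with 1.18 and 0.987. In the CA1-like cluster led by Pde11a the levels were 2.07 and 3.41, and in the one led by 4921539H07Rik they were 1.40 and 1.90, so the libraries differed in both clusters and the clusters differed in both libraries.

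In some classes the Ly6h level moved with the number of detected genes, and in opposite directions. CA3-like cells were divided into 5 equal bins of detected genes: the level went from 1.01 in the bin with the fewest (median 3766 genes) to 2.82 in the bin with the most (4602 genes) in the wild-type library, and from 1.43 to 4.54 in the knock-in library. Dentate granule-like and interneuron-like cells showed no steady trend. In the lowest, middle and highest dentate granule-like bins the wild-type levels were 1.16, 1.02 and 1.27 and the knock-in levels 1.59, 1.38 and 1.80. The knock-in level was the higher in all 5 bins of CA3-like, CA1-like, dentate granule-like and interneuron-like cells. However, the lowest CA1-like bin gave 1.52 and 1.54 and the middle interneuron-like bin 1.68 and 1.71. With the bins of detected genes given the same weight in both libraries, the log2 ratio was 0.64 in CA3-like and 0.50 in CA1-like cells. The latter is under 1.5-fold.

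In microglia-like cells the relation ran the other way from that in CA3-like cells. Among the 300 cells with the fewest detected genes (median 2343), Ly6h was at 0 in 30, at 1 in 178, at 2 in 15 and at 3 in 59, while among the 297 with the most (median 4248) it was at 0 in 172, at 1 in 76, at 2 in 28 and at 3 in 11. Values of 1 were thus commonest where the fewest genes were detected, and shares of glia and vessel cells above 0 for Ly6h are not read as expression. The counts of classes and pairs given above include Ly6h levels of glia, to which such values contribute. In microglia-like cells the levels were 1.35 and 1.25, and in those with at least 3000 detected genes they were 0.389 and 0.688. The log2 ratio over all microglia-like cells was -0.10. It was 0.12 with equal cluster weights and 0.079 with equal weights of bins of detected genes, a change of direction. In astrocyte-like cells with at least 3000 detected genes they were 0.317 and 0.764.

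**Figure D2:**
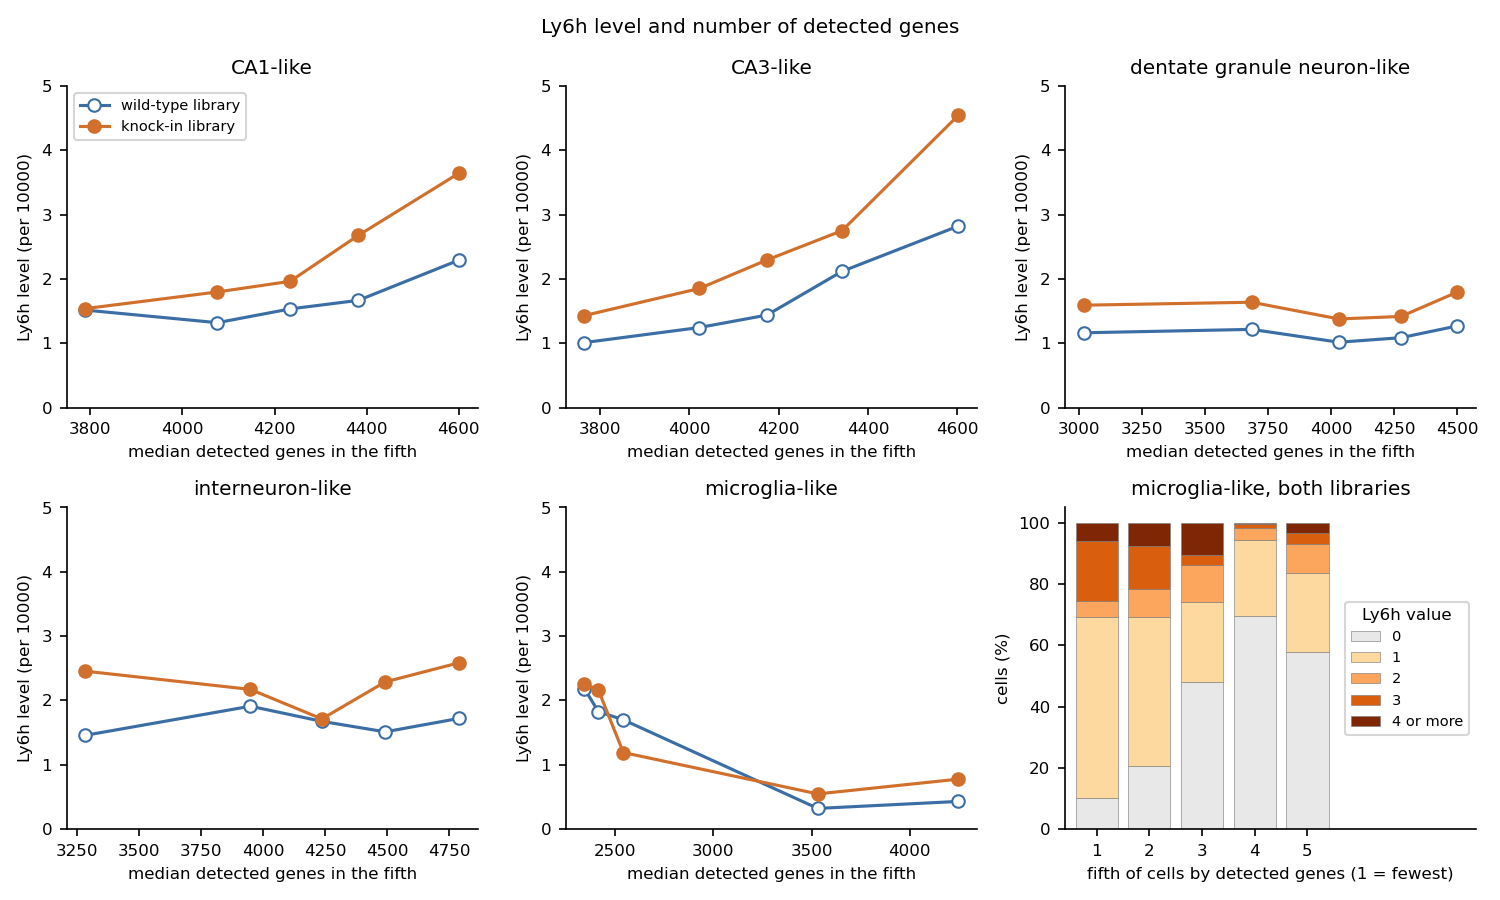
Ly6h level (y axis, per 10000) against the median number of detected genes in 5 equal bins of cells (x axis) in the wild-type (open points, blue) and knock-in (filled points, orange) libraries, with the make-up of Ly6h values in microglia-like cells of both libraries by bin at lower right (y axis, percent of cells). The level is highest in the bin with the most detected genes in CA1-like and CA3-like cells, and in wild-type microglia-like cells it is 2.18 in the bin with the fewest and 0.43 in that with the most.

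Other transcripts also differed between libraries. In CA1-like cells the summed level of 83 cytosolic ribosomal protein genes was 11.7 in wild-type and 17.1 in knock-in cells, that of 24 mitochondrially encoded genes was 3.72 and 8.28, and that of the nuclear RNA Malat1 was 141 and 213. In CA3-like cells the ribosomal sums were 7.92 and 11.7. In microglia-like cells, with Ly6h at 1.35 and 1.25, the ribosomal sums were 258 and 248, the mitochondrial sums 101.5 and 113.6 and Malat1 153 and 158. In Cajal-Retzius-like cells, where Ly6h was nearly equal, the ribosomal sums were 29.5 and 30.6. The mitochondrial sums there were 37.7 and 68.8, and Malat1 was 283 and 356. Choroid plexus-like cells, with Ly6h at 0.822 and 0.835, had ribosomal sums of 226 and 308. Their mitochondrial sums were 194 and 365, and Malat1 was 114 and 108. The part of these transcripts in the Ly6h result was not tested. The summed level of 15 pyramidal neuron markers was nearly equal between libraries in CA1-like cells, 28.6 in both, and in mature oligodendrocyte-like cells, 5.91 and 6.01. In each of these classes 11 of the 15 single markers were higher in knock-in cells. Other classes differed more, in both directions. The sums were 5.754 and 6.665 in fibroblast-like and 7.587 and 8.125 in oligodendrocyte precursor-like cells. They were 19.16 and 18.25 in astrocyte-like and 7.624 and 6.759 in microglia-like cells. The median log2 ratio of all genes that met the limits was -0.05 in CA1-like and -0.03 in CA3-like cells, and 1.44% and 1.00% of those genes had a ratio at least as high as that of Ly6h.

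**Figure D3:**
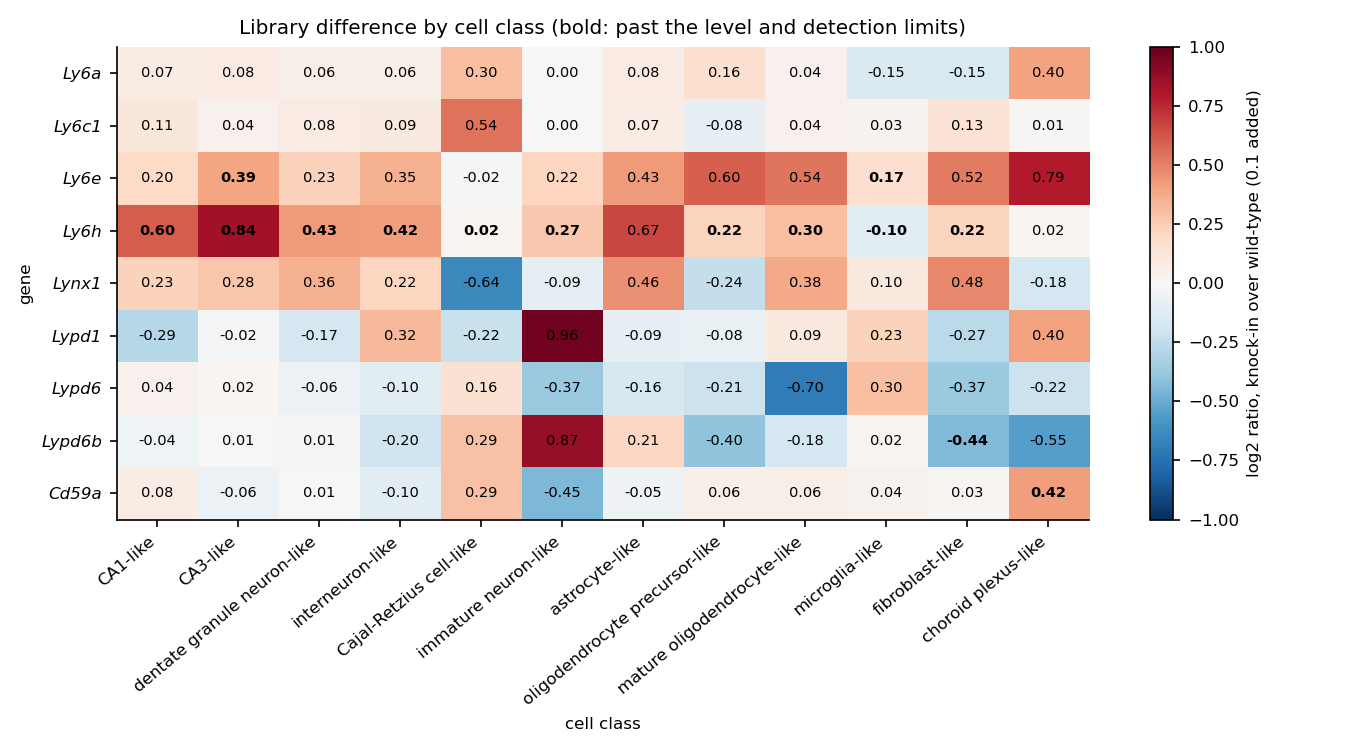
Log2 ratio of the levels, knock-in over wild-type with 0.1 added (colour and printed value), for the 9 genes (y axis) in the 12 classes compared (x axis). Bold values met the limits on level and detection; Ly6h in CA3-like (0.84) and CA1-like (0.60) cells are the bold values past 1.5-fold.

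Lynx1, the prototype of the family in brain and a known brake on nicotinic signalling and on plasticity in adult cortex, had its highest level among named classes in CA3-like neurons. There it was 0.683 in wild-type and 0.849 in knock-in cells, and 48.2% (42.5 to 54.0) and 58.1% (52.8 to 63.2) of cells were above 0, intervals that overlapped. CA1-like cells came to 0.342 and 0.419, with 28.9% and 36.0% of cells above 0, and dentate granule-like cells to 0.334 and 0.457. In microglia-like cells, 4.17% and 5.96% of cells were above 0. CA3-like levels lay above CA1-like levels in both libraries by more than the libraries differed within either class. In thinned cells the CA3-like shares were 8.74% (5.84 to 12.5) and 8.61% (5.93 to 12), and the CA1-like shares 3.36% (2.24 to 4.82) and 4.12% (2.96 to 5.56). The order below CA3-like cells differed between libraries. Levels of 0.369 and 0.446 were seen in interneuron-like, 0.431 and 0.240 in Cajal-Retzius-like, 0.432 and 0.371 in choroid plexus-like and 0.435 and 0.404 in endothelial-like cells. Lynx1 met the limits in no class.

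Lypd1, which binds nicotinic receptors in neurons and is known from mouse work on anxiety, had its highest levels over both libraries together in dentate granule-like and CA1-like cells. Its levels were 0.383 and 0.330 in dentate granule-like cells, with 26.9% (24.5 to 29.3) and 25.8% (23.3 to 28.3) of cells above 0, and 0.290 and 0.220 in CA1-like cells, with 23.1% (20.2 to 26.1) and 19.6% (17.2 to 22.3). CA3-like cells, with medians of 4083 and 4241 detected genes beside 4167 and 4286 in CA1-like cells, had 0.0985 and 0.0956, with 7.44% and 8.06% of cells above 0, so the order of Lynx1 between CA1-like and CA3-like cells was turned round for Lypd1. Within CA1-like cells the clusters also differed: 0.368 and 0.304 in the cluster led by 4921539H07Rik, against 0.122 and 0.0796 in the one led by Pde11a. Exons of Lypd1 overlap those of Gpr39 on the other strand. Whether the authors' counting used strand is not given in the sources used here, so how reads of the overlap were assigned is not known. The level given for Gpr39 was 0.0883 and 0.0776 in dentate granule-like cells and 0.0876 and 0.0601 in CA1-like cells.

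Lypd6 and Lypd6b, neighbours on chromosome 2, were shared by interneuron-like and fibroblast-like cells and were nearly lacking from the principal neurons. In CA1-like cells, 1.32% and 1.65% of cells were above 0 for Lypd6 and 1.44% and 1.13% for Lypd6b, with none at 2 or more for either gene. Interneuron-like cells, which had a similar number of detected genes (medians 4107 and 4328, beside 4167 and 4286), had Lypd6 levels of 0.531 and 0.487 and Lypd6b levels of 0.883 and 0.756. Fibroblast-like cells had 0.837 and 0.622 for Lypd6 and 1.04 and 0.739 for Lypd6b. Other classes set the pair apart. Lypd6 was at 0.893 and 0.787 in astrocyte-like, 0.604 and 0.507 in oligodendrocyte precursor-like and 0.938 and 0.702 in immature neuron-like cells, where Lypd6b was at most 0.182.

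Among interneuron-like cells both genes had higher levels in those with Sst, the somatostatin gene of dendrite-targeting interneurons. Of the 719 interneuron-like cells, 307 lay in a cluster led by 6330411D24Rik, Lef1 and Otx2os1, which had 6 of the 12 interneuron markers. Whether they are hippocampal interneurons was not tested, and the splits below did not set them apart. All interneuron-like cells were split at an Sst value of 3, a division made after the values had been seen. Of the cells at 3 or more, 29 wild-type and 43 knock-in, 79.3% (60.3 to 92.0) and 86.0% (72.1 to 94.7) were above 0 for Lypd6b, against 19.0% (13.97 to 25.02) and 21.7% (17.96 to 25.91) of the rest. The levels of Lypd6b were 3.60 and 3.22 in the Sst cells and 0.503 and 0.507 in the rest. For Lypd6 the shares were 65.5% and 62.8% in the Sst cells and 13.8% and 18.1% in the rest, and the levels were 2.49 and 1.95 against 0.256 and 0.339. The intervals of the Sst cells and of the rest did not overlap for either gene in either library. Median detected genes were 4256 and 4529 in the Sst cells and 4080 and 4283 in the rest.

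Cells with Vip, a peptide of interneurons that contact other interneurons, had lower shares for Lypd6b. Of the cells with Vip at 3 or more, 0 of 19 in the wild-type library were above 0 for Lypd6b, which allows a share of up to 15.8% (3 counts of the total, the limit used here for every count of 0; the exact interval reaches 17.6%). In the knock-in library they were 4.76% of 21 (0.12 to 23.8), and of the cells with less Vip 28.6% (22.8 to 35.1) and 28.5% (24.4 to 32.9) were above 0. For Lypd6 the shares were 10.53% (1.30 to 33.1) and 0 of 21, which allows up to 14.3% (exact interval up to 16.1%), against 20.9% (15.7 to 26.9) and 23.1% (19.3 to 27.2). The intervals for Lypd6 overlapped in the wild-type library. Median detected genes were 3400 and 4264 in the Vip cells and 4151 and 4333 in the rest, so the wild-type Vip cells also had fewer detected genes. The interneuron-like cluster led by Dlx6os1, Gad2, Pld5 and Reln, with 17 and 32 cells, was at 0 for both genes in both libraries. Lynx1 had high shares with another marker. It was above 0 in 83.3% (35.9 to 99.6) of 6 wild-type and 87.5% (47.4 to 99.7) of 8 knock-in cells with Pvalb, the parvalbumin gene of fast-spiking interneurons, at 3 or more. In the other interneuron-like cells the Lynx1 shares were 27.5% (21.8 to 33.7) and 33.7% (29.4 to 38.2). In the Pvalb cells Lypd6 was above 0 in 33.3% (4.33 to 77.7) and 62.5% (24.5 to 91.5), the latter near the share in Sst cells, and Lypd6b in 50% (11.8 to 88.2) and 25% (3.18 to 65.1). The Pvalb values rest on few cells.

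**Figure D4:**
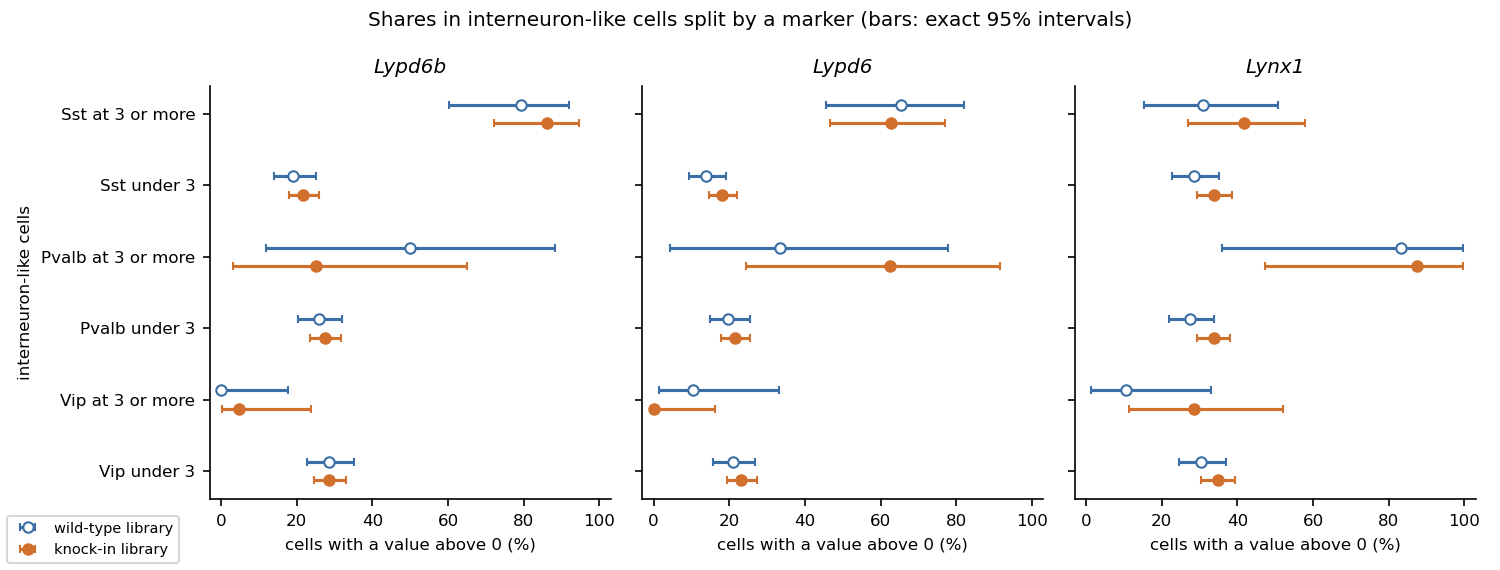
Percent of interneuron-like cells with a value above 0 (x axis) for Lypd6b, Lypd6 and Lynx1 in cells split by Sst, Pvalb or Vip at a value of 3 (y axis), in the wild-type (open) and knock-in (filled) libraries; bars are exact 95% intervals for counting error. Lypd6b and Lypd6 stand high in the Sst cells (79.3% and 86.0% for Lypd6b), and Lynx1 in the few Pvalb cells.

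Lypd6 also gave the lowest ratio of any of its classes in mature oligodendrocyte-like cells, the myelin-forming glia. The level was 0.630 in wild-type and 0.349 in knock-in cells, giving a log2 ratio of -0.70, and 22.1% (20.1 to 24.3) and 16.0% (14.2 to 17.98) of cells were above 0. The level stayed under 1 per 10000 in both libraries, so the pair did not meet the limits of the size rule. Of the 1971 genes that met them in these cells, 99.7% had a ratio at least as high. The libraries filled the oligodendrocyte-like clusters differently, with 451 wild-type and 147 knock-in cells in the one led by Pde4b and 132 and 506 in the one led by Gm44866 and Prr5l. Lypd6 was lower in the knock-in library in all 6 of these clusters, at 0.692 and 0.248 in the first and 0.497 and 0.334 in the second. With equal cluster weights the log2 ratio was -0.74, and with equal weights of bins of detected genes -0.68. After thinning to a total of 1000 the shares were 5.98% (4.84 to 7.30) and 3.06% (2.25 to 4.06). In astrocyte-like cells the levels of Lypd6 differed less, with a log2 ratio of -0.16 and shares of 35.8% (32.0 to 39.8) and 33.6% (30.4 to 37.0).

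Cd59a, the complement regulator, had its highest level in choroid plexus-like epithelium, the tissue that makes cerebrospinal fluid. Its level there was 1.24 in wild-type and 1.69 in knock-in cells (log2 ratio 0.42), and 51.0% (40.9 to 61.0) of 102 and 65.9% (55.2 to 75.5) of 91 cells were above 0. These intervals overlapped, and 12.8% (6.96 to 20.8) and 7.69% (3.15 to 15.2) of cells were above 0 after thinning, the opposite order. The level was 1.62 and 1.94 in the cluster led by Ttr and 0.719 and 0.884 in the one led by Htr2c. Endothelial-like cells had 0.435 and 0.342, and no other named class was above 0.1 in either library. In CA1-like cells 1.44% and 2.06% of cells were above 0, none of them at 2 or more. The neighbouring copy Cd59b was at 0.259 and 0.313 in choroid plexus-like cells; 0.882% of the 50-base words in the last 500 bases of Cd59a transcripts occur in Cd59b as well.

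Ly6e, known for restricting coronavirus entry and for its induction by interferon, marked the myeloid cells. Border macrophage-like cells had levels of 5.13 and 5.54, microglia-like cells 3.38 and 3.81, and endothelial-like cells 2.77 and 3.27. Microglia-like cells were not uniform: the cluster led by P2ry12 and Cx3cr1 had 4.90 and 5.21, the one led by Cst3 and Tyrobp 3.97 and 5.34, and the one led by Inpp5d and Arhgap45 1.05 and 1.42. The knock-in level was the higher in 11 of the 12 classes, with log2 ratios from -0.02 to 0.79. Ly6e met the limits in only 2 of the 12, CA3-like and microglia-like cells. The ratio of 0.79 was that of choroid plexus-like cells, at 0.259 and 0.522, which did not meet them. In microglia-like cells the log2 ratio was 0.17, with 62.9% (59.0 to 66.6) and 73.7% (70.5 to 76.6) of cells above 0. The detected genes of these cells had medians of 2487 and 2880, and the direction was mixed over 5 bins of detected genes. From the fewest genes to the most, the levels were 2.35 and 3.47, 2.30 and 1.91, 3.33 and 3.14, 4.78 and 5.27, and 4.34 and 4.38.

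Among neurons Ly6e was highest in CA3-like cells. Its level there was 0.768 and 1.04, with 53.4% (47.7 to 59.1) and 66.7% (61.5 to 71.5) of cells above 0. CA1-like cells had 0.251 and 0.304, with 22.3% (19.5 to 25.3) and 27.3% (24.5 to 30.2), and dentate granule-like cells 0.273 and 0.338. The distance between CA3-like and CA1-like cells was seen in both libraries and was larger than that between libraries. Among the 611 mature oligodendrocyte-like cells with the fewest detected genes Ly6e was at 0 in 579, at 2 in 31 and at 4 or more in 1, and in none at 1.

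Ly6a and Ly6c1 had their highest levels in endothelial-like cells, of which 25 were wild-type and 41 knock-in. Ly6a had levels of 1.25 and 1.96, with 36.0% (17.97 to 57.48) and 46.3% (30.7 to 62.6) of cells above 0. Ly6c1 had 1.74 and 1.62, with 52.0% (31.3 to 72.2) and 53.7% (37.4 to 69.3). All these intervals overlapped between libraries, and the class fell short of the 50 cells that the size rule asked for. In CA1-like cells 0 of 833 wild-type cells were above 0 for Ly6a, which allows a share of up to 0.36% (exact interval up to 0.442%), and 0.514% of knock-in cells. For Ly6c1 these shares were 0.120% and 0.926%, and no CA1-like cell had a value of 2 or more for either gene. Over all cells, 33 had Ly6c1 at 2 or more and 24 of these were endothelial-like.

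The 2 genes were often found in the same endothelial-like cells but not always. Of the 66 cells, 20 were above 0 for both, 8 for Ly6a alone, 15 for Ly6c1 alone and 23 for neither. The highest Ly6a value, 20, stood in a knock-in cell with Ly6c1 at 5, out of a knock-in sum of 63 over these cells. Without the highest cell of each library the Ly6a levels were 0.961 and 1.37. Transcripts of the pair are similar enough to share reads: 29.2% of the 50-base words in the last 500 bases of Ly6c1 transcripts occur in other genes, mainly Ly6c2 and Ly6a, and 8.13% of those of Ly6a. How the authors' counting treated such reads is not given in the sources used here, so the split among Ly6a, Ly6c1 and Ly6c2 is uncertain. Ly6c2, the other family gene at 0.5 per 10000 or more in a class, was at 0.707 and 0.840 in endothelial-like and 0.575 and 1.11 in border macrophage-like cells.

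**Figure D5:**
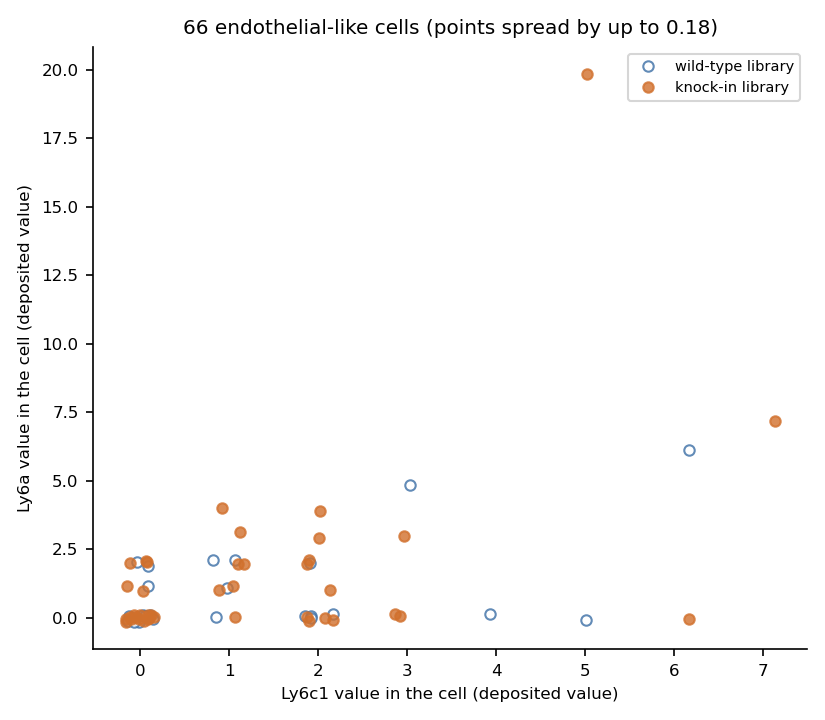
Deposited values of Ly6c1 (x axis) and Ly6a (y axis) in each of the 66 endothelial-like cells, from the wild-type (open) and knock-in (filled) libraries; points are spread by up to 0.18 so that equal values can be seen. Cells with both genes (20), with either alone (8 and 15) and with neither (23) occur in both libraries.

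Outside vessels, Ly6a differed from Ly6c1 in the myeloid cells. Of the 52 cells with Ly6a at 2 or more, 21 were endothelial-like, 15 microglia-like and 7 border macrophage-like. Of the 1486 microglia-like cells, 37 were above 0 for Ly6a and 3 for Ly6c1. In those 37 cells the median number of 12 endothelial markers above 0 was 0, and the summed endothelial marker level was 0.656, beside 0.697 in the microglia-like cells without Ly6a and 75.5 in endothelial-like cells with it. In border macrophage-like cells the Ly6a level was 0.262 in wild-type and 1.02 in knock-in cells, from 24 and 41 cells of which 9 were above 0. In those 9 the endothelial marker level was 8.13, beside 1.93 in the rest, and a cell among them had 12 of the 12; the part of such cells in the level was not tested. The pericyte-like and smooth muscle-like level of 0.395 in the knock-in library came from 2 cells, and 1 of those also had all 12.

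None of the genes of the pathways in which the family is known to act was past the 2-fold rule. Of 16 nicotinic receptor subunits in the table, Chrna7, the alpha7 subunit, alone met the limits. Its levels were 1.98 and 1.95 in CA1-like, 1.88 and 1.67 in CA3-like and 1.58 and 1.29 in dentate granule-like cells. In interneuron-like cells they were 1.76 and 1.11, a log2 ratio of -0.63 and the single pair of the list past 1.5-fold. Among all gene-by-class pairs that met the limits, 3.08% were lower by 1.5-fold or more. In immature neuron-like cells Chrna7 was instead higher in the knock-in library, at 0.992 and 1.325 (log2 ratio 0.38). Its median log2 ratio over the 5 classes that met the limits was -0.16. The cholinergic accessory genes, 6 in the table, met the limits nowhere. Ric3, a chaperone of nicotinic receptors, had 0.505 and 0.545 in CA1-like cells and 0.522 and 0.619 in interneuron-like cells.

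Of 14 genes of terminal complement and its regulators, 3 met the limits, in 6 pairs, with a median log2 ratio of 0.28 and none past 1.5-fold. Clu, clusterin, which binds the forming attack complex, was at 7.81 and 9.62 in astrocyte-like and 14.5 and 17.4 in choroid plexus-like cells. Vtn, vitronectin, was at 4.997 and 6.94 in fibroblast-like cells. Cr1l, a complement regulator of cell surfaces, reached 1 per 10000 in endothelial-like cells alone, at 1.03 and 0.871. Of 6 Wnt co-receptor genes, 3 met the limits, in 14 pairs, with a median of -0.06 and none past 1.5-fold. Lrp6, to which Lypd6 binds, was at 1.29 and 1.07 in astrocyte-like and 0.686 and 0.705 in mature oligodendrocyte-like cells, Lrp5 at 1.13 and 1.34 in microglia-like cells, and Dkk3 at 2.64 and 2.06 in CA1-like cells. Of the 44 genes of the family list 24 were in the table, and those meeting the limits were the members Ly6h, Ly6e, Lypd6b and Cd59a.

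For each member the genes of most similar level across the 16 named classes in both libraries (32 points, log2 levels, 6240 genes with at least 1 per 10000 somewhere) were sought. The points share libraries, depth correction and cell numbers, so the correlations are descriptions. Ly6c1 followed Cldn5 (Pearson r = 0.995), the tight junction protein of brain vessels, then Adgrl4 (0.980) and Abcb1a (0.964), the drug efflux pump of the blood-brain barrier. Ly6a followed Ly6c2 (0.960), Acvrl1 (0.919) and Pglyrp1 (0.899), and Ly6e followed Gvin1 (0.914), Gm4070 (0.912) and Nrros (0.895), a gene of myeloid cells. Cd59a followed Clic6 (0.872), itself a marker used to name the choroid plexus-like class, Eps8l2 (0.869) and Id1 (0.864). Lypd6b followed Ebf2 (0.870), Ror2 (0.803) and Sema3a (0.789), and Lypd6 followed Smoc1 (0.811) and Arnt2 (0.741).

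Ly6h followed the dynein chain Dync1i1 (r = 0.834), C230004F18Rik (0.774) and Fbxl2 (0.771). Lynx1 followed Myrip (0.787), Syt13 (0.784) and Nsun7 (0.757), and Lypd1 followed Doc2b (0.765), a calcium sensor of vesicle release, Spon1 (0.731) and Lmo3 (0.730). Among the members themselves, the highest correlation was that of Ly6a with Ly6c1 (0.893), followed by Ly6a with Ly6e (0.711) and Lypd6 with Lypd6b (0.601), and the lowest was that of Lypd6 with Ly6e (-0.401).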

How the data were processed

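Single-cell RNA was measured with 10x Genomics v3 chemistry in 1 wild-type and 1 knock-in library, per the labels. The authors deposited 1 table of whole-number values, treated here as a score: they are depth-corrected and whole, as the name of the deposited table and its narrow range of totals show, so they are not raw counts and no count model was fitted. Seurat 3.0.0 and GRCm38 are named in the submitters' processing notes; the aligner and cell filter are not given in the sources used here.

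Cells were clustered with scanpy 1.11.5 (Python 3.11.15) without the Ly6 and Lynx family and sex-linked genes, on 2000 variable genes, 30 components and 15 neighbours at Leiden resolution 2, which gave 50 clusters. A cluster was named for the class with most of its markers present (3 or more, in at least 25% of cells and 1.5-fold over other clusters); 16 stayed unnamed. The clusters were known when this rule was chosen. Doublets were kept; Scrublet at an expected 6% called 61 wild-type and 209 knock-in cells (0.86% and 2.37%). Cells were thinned to a total of 1000 for shares, and no cell was under it. Levels and the size rule were tested on simulated data.

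The members and lists were chosen with earlier results of these data known. The genes named are the 9 members, other family genes at 0.5 per 10000 or more in a class, list genes at 1 or more or past the size rule, and the 3 genes of most similar pattern per member; Ric3, Gpr39, Cd59b and the interneuron markers were added after their values were seen. A few genes that the rule names are not reported here. Alternatives were other pseudocounts, limits, clusterings, cell filters and weights. Gene positions are from GENCODE M21.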

Additional observations from a re-analysis of the deposited data

How the results depend on the processing

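The log2 ratios of the 9 members over all cells were 0.17 (Ly6a), 0.11 (Ly6c1), 0.33 (Ly6e), 0.50 (Ly6h), 0.21 (Lynx1), -0.06 (Lypd1), -0.22 (Lypd6), 0.19 (Lypd6b) and 0.09 (Cd59a). Of 81 values under alternatives, 68 moved by less than their counting error and kept their direction. With 0.01 added in place of 0.1, Ly6a gave 0.74; with 1 added, Ly6e gave 0.14, Ly6h 0.32, Lynx1 0.065 and Lypd6 -0.060, a shift that the added value itself makes. Ly6h gave 0.76 with values of 1 set to 0 and 0.43 with equal cluster weights. In alternatives chosen after seeing the data, equal weights of 5 bins of detected genes gave 0.40 for Ly6h, 0.076 for Lynx1 and -0.19 for Lypd1, and cells with at least 3000 detected genes gave 0.59 for Ly6h, -0.19 for Lypd1 and 0.22 for Lypd6, the last a change of direction; the mature oligodendrocyte-like cells, where Lypd6 was lower, keep only 35 wild-type and 42 knock-in cells there. Beyond the effect of the added value, the cause of these shifts was not tested, that of Lypd6 included.

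The count of member-by-class pairs past the size rule was 0 in the setting reported and in 10 of 12 alternatives. It was 2 at 1.5-fold (Ly6h in CA1-like and CA3-like cells) and 1 with values of 1 set to 0 (Ly6h in CA3-like cells, log2 ratio 1.12). Of the 72 recomputed levels in each gene's highest class, 49 stayed within counting error, and 14 of the 23 that did not came from assigning cells to classes one by one, which took Ly6a in endothelial-like cells to 0.197 (wild-type) and 0.488 (knock-in) and Ly6c1 to 0.2496 and 0.4383. All 18 shares were lower after thinning. No paired analysis was possible because each genotype is a single pool. Depth correction limits what a value of 1 means, and the number of mice per library cannot be used as replication.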

Other observations

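Some clusters that the markers did not name had high levels of the family. Ly6h was at 1.996 (wild-type) and 4.999 (knock-in) in the cluster led by 9330185C12Rik, AC060761.1 and Plch1 (19 and 44 cells), and at 3.47 and 4.12 in the one led by Il1rapl2 and Gm28928 (21 and 146 cells). Lynx1 reached 0.869 and 1.31 in the cluster led by Gm32647, Trpc7 and Cpne9 (24 and 22 cells), above its level in CA3-like cells. Lypd1 was at 0.507 and 0.601 in the cluster led by Vwc2l and Cntn6 (86 and 105 cells), and at 0.182 and 0.448 in the one led by Unc5d and Pdzrn3 (118 and 362 cells). Ependymal-like cells, 18 and 13 in number, had Ly6h levels of 2.45 and 3.72. These groups of cells entered no count of pairs.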
